A study of Rattus norvegicus with 28 samples.

Results

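Cells display fragments of their proteins on major histocompatibility complex (MHC) molecules, which the rat encodes in the RT1 region. Class II molecules pair an alpha chain and a beta chain, and the invariant chain Cd74 holds them until a fragment from taken-up protein is loaded. Class I molecules pair a heavy chain with beta-2 microglobulin (B2m), and carry fragments that the proteasome cuts and the transporter Tap1 moves into the endoplasmic reticulum. Psmb8 and Psmb9 are among the interferon-inducible catalytic subunits of the immunoproteasome. In resting brain Cd74 and the class II genes are known to be expressed weakly. Microglia, macrophages that enter the tissue, and cells of the choroid plexus and meninges are known to express them more strongly.

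The expression of 9 antigen presentation genes was examined in the hippocampus of 14 adult male Sprague-Dawley rats. Of 15637 genes named on the array, the 9 were taken by symbol: Cd74, RT1-Da, RT1-Ba, RT1-Bb, RT1-Db1, B2m, Tap1, Psmb8 and Psmb9. They had 11 of the 30367 non-control probes. Total RNA of the whole hippocampus, 1 rat per array, was hybridised to 1-colour Agilent arrays 24 h after a sham procedure or severe fluid-percussion traumatic brain injury. The groups were Sham with no injury (n = 2), TBI without an antidepressant (n = 3), TBI+Imipramine (n = 3), TBI+Prozac (n = 3) and TBI+Zoloft (n = 3). Prozac is fluoxetine and Zoloft is sertraline, and each drug was given once into the abdomen 1 h after injury. Untreated rats received vehicle per the methods, which the labels do not state. No Sham sample was labelled with a drug. The comparisons ask what injury changed and whether a drug given after it changed the same genes.

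Levels are log2 values of a probe's signal over its array's 75th percentile, taken over probes above background, so that 0 is the level of that percentile. A level is compared between groups for 1 probe, never between probes. Of the 11 probes, 6 were above background on all 14 arrays, and 10 entered the tests. The arrays had 14676 to 18196 probes above background. Of the 3 slides, 1 carried all TBI arrays together with TBI+Prozac replicate 1, another carried the remaining 8 drug arrays, and the last carried the Sham arrays, which were scanned on another day. Slide and Sham therefore cannot be told apart, and drug and slide were linked by 1 array. Tissue was bulk hippocampus, in which more cells of a type and more RNA per cell cannot be told apart. Neurod2, Neurod6, Camk2a and the other hippocampal neuron markers tested gave a summed level of 7.85 to 11.4 on every array, and Prox1, a marker of dentate granule neurons, was above background on none.

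Promoters of the 4 class II genes are shown because RT1-Da and RT1-Db1 followed each other and Cd74 closely across rats, and because promoters of class II genes are known for an X box and a Y box, the sites of the factors RFX and NF-Y, on which the class II activator CIITA assembles. All 9 genes had an entry in the RefSeq promoter table, which covers 250 bases before to 50 after each gene's start in build GRCr8. The stretches run 5′ to 3′ on the gene's strand, with matches to the X box letters GNNACNGAT and the Y box letters ATTGG, on either strand, in capitals.
RT1-Da, plus strand, chr20:4515315-4515414: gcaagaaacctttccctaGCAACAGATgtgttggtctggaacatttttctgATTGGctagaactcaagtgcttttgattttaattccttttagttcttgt
RT1-Db1, minus strand, chr20:4560193-4560292: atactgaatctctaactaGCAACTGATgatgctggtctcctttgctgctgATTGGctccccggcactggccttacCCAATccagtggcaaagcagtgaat
RT1-Bb, minus strand, chr20:4604129-4604228: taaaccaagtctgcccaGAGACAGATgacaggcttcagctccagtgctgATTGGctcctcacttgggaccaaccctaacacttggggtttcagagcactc
RT1-Ba, plus strand, chr20:4576957-4577056: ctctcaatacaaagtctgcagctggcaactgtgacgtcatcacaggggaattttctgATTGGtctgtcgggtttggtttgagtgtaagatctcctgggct

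In RT1-Da, RT1-Db1 and RT1-Bb the X box match began 32 to 33 bases before a Y box match, at 82, 112 and 93 bases upstream of the start. The Y box letters were found in 8 of the 9 genes, all but Tap1. RT1-Ba held a Y box match 43 bases upstream and no match to these X box letters. Among all 33469 promoters in the table, 7.83% held the X box letters, 37.5% the Y box letters and 3.29% both. An X box match followed by a Y box match 31 to 35 bases on, a spacing set after these matches were seen, occurred in 11 promoters, or 0.0329%. Of these 11, 9 were RT1 genes: RT1-Da, RT1-Db1, RT1-Db2, RT1-Bb, RT1-DMa, RT1-CE3, RT1-CE5, RT1-CE10 and RT1-M3-1. These genes are related copies and share sequence, so the 9 are not independent. A match is a description of letters and not a shown site of binding.

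The class I side is represented by B2m and Tap1, shown because interferon-inducible promoters are known for the interferon-stimulated response element. Matches to its letters AAANNGAAA, on either strand, and in B2m the Y box match, are in capitals.
B2m, plus strand, chr3:129549170-129549289: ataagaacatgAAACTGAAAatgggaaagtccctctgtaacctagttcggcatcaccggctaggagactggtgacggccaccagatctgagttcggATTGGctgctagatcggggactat
Tap1, minus strand, chr20:4668584-4668683: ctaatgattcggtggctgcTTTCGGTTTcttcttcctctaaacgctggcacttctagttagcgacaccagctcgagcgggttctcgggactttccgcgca

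The element's letters were found in the promoters of B2m, Tap1 and Psmb8, and in 11.8% of all promoters. The letters of the gamma-activated site, TTCNNNGAA, were found in Psmb8 alone among the 9 genes and in 8.87% of all promoters. Psmb8, Tap1 and Psmb9 lie next to each other on chromosome 20, in the same RT1 region as the class II genes, while B2m and Cd74 lie elsewhere.

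After TBI, 4 of the 8 genes with a probe in the tests were higher than in Sham and none was lower. They were the invariant chain Cd74, the class II alpha chain RT1-Da, and the immunoproteasome subunits Psmb8 and Psmb9, which were higher by 3.60-fold to 6.59-fold. Over all 17322 probes tested, 8.3% passed in this direction (limma, adjusted p under 0.05). The median log2 difference of the 8 genes was 1.54, against 0.00 for all probes. Leaving out Sham replicate 1 left only Psmb9 past the threshold, beside 3.22% of all probes higher, and leaving out TBI replicate 1 left 2 of the 4 genes, beside 11.3%.

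**Figure D1:**
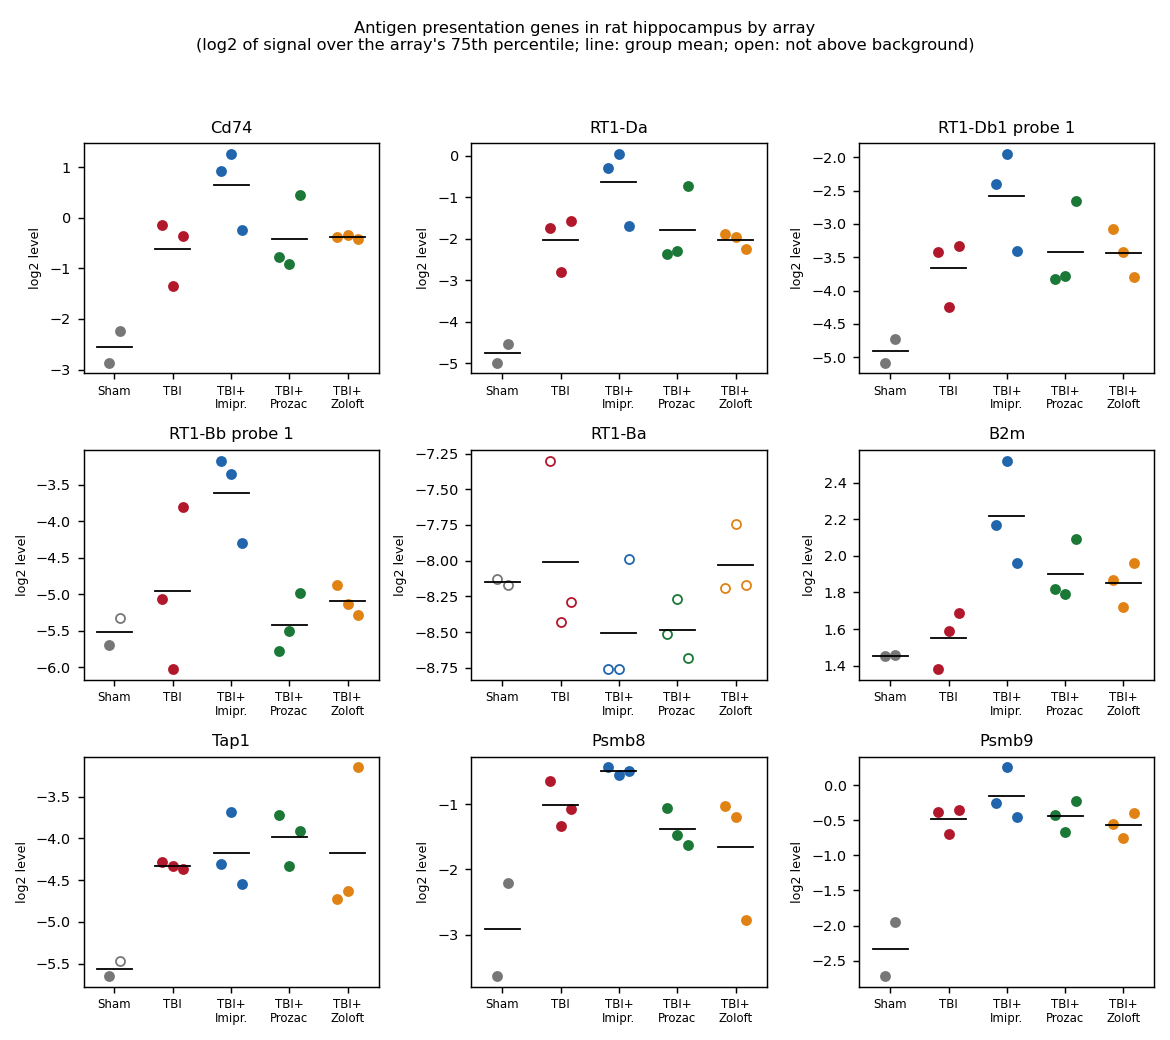
Level of each of the 9 genes on each of the 14 arrays, as log2 of the signal over the array's 75th percentile (vertical axes, scaled per gene), by group. Each point is 1 rat, lines are group means and open points were not above background. Cd74, RT1-Da, RT1-Db1, Tap1 and Psmb9 have all 12 injured rats above both Sham rats, and RT1-Ba is open throughout.

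RT1-Da, an alpha chain of class II, was at -4.98 and -4.53 in Sham and at -1.73, -2.80 and -1.57 in TBI. The groups did not overlap, and TBI replicate 2 was the lowest of the injured rats. The log2 difference was 2.72 (95% CI 1.5 to 3.94, limma adjusted p = 0.00691), a 6.59-fold higher level.

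Cd74 was at -2.86 and -2.23 in Sham and at -0.14, -1.34 and -0.37 in TBI. TBI replicate 2 was again the lowest of the 3, and it lay above both Sham rats. The log2 difference was 1.93 (95% CI 0.86 to 2.99, limma adjusted p = 0.0198).

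The class II beta chain RT1-Db1 had 2 probes. On the first it was at -5.08 and -4.73 in Sham and at -3.42, -4.25 and -3.33 in TBI, a log2 difference of 1.24 (95% CI 0.26 to 2.21, limma adjusted p = 0.0815). On the second, neither Sham array was above background, and all 3 TBI arrays were, so that the level was at least 2.61-fold higher after TBI (limma adjusted p = 0.0724). Neither probe passed the threshold, although TBI and Sham did not overlap on either.

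RT1-Bb, the beta chain of the other class II pair, did not pass either. Its first probe was at -5.70 and -5.33 in Sham and at -5.06, -6.03 and -3.80 in TBI, with overlapping groups (log2 difference 0.55, 95% CI -0.57 to 1.67, limma adjusted p = 0.511). Its partner RT1-Ba was above background on none of the 14 arrays, with values from -8.76 to -7.30, and was not tested. One class II pair was thus measured by both of its chains and the other by its beta chain alone.

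On the class I side, Psmb9 had the lowest adjusted p of the 9 genes. It was at -2.72 and -1.95 in Sham and at -0.39, -0.70 and -0.36 in TBI, with no overlap. The log2 difference was 1.85 (95% CI 1.29 to 2.40, limma adjusted p = 0.000765). Psmb9 also passed the threshold in 25 of 26 alternative analyses, the exception being the methods' t-test after adjustment, where 0 of 17322 probes passed.

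Psmb8 was at -3.63 and -2.20 in Sham and at -0.65, -1.33 and -1.07 in TBI. The 2 Sham rats lay farther apart than the 3 TBI rats did. The log2 difference was 1.90 (95% CI 0.85 to 2.95, limma adjusted p = 0.0196), and it was 1.18 without Sham replicate 1 and 2.61 without Sham replicate 2.

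Tap1 was at -5.65 and -5.47 in Sham, the second of these not above background, and at -4.28, -4.33 and -4.37 in TBI. The groups did not overlap and the TBI rats were close together, but the difference did not pass the threshold (log2 difference 1.23, 95% CI 0.36 to 2.10, limma adjusted p = 0.0540).

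B2m, the light chain of class I, was at 1.45 and 1.46 in Sham and at 1.38, 1.59 and 1.69 in TBI. One TBI rat was below both Sham rats and 2 were above them. The log2 difference was 0.10, and its 95% CI of -0.28 to 0.48 does not reach the differences measured for Cd74, RT1-Da, Psmb8 or Psmb9 (limma adjusted p = 0.738).

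Treated rats were also compared with Sham. These comparisons share the Sham arrays with each other and with TBI vs. Sham, so their values are given side by side only. All 8 genes tested were higher in TBI+Imipramine than in Sham, where 19.8% of all probes were higher. In TBI+Prozac 5 of the 8 were higher, Cd74, RT1-Da, RT1-Db1, Tap1 and Psmb9, beside 11.7% of all probes. In TBI+Zoloft 3 of the 8 were higher, Cd74, RT1-Da and Psmb9, beside 4.16% of all probes. None of the 8 genes tested was lower in a treated group than in Sham. With Sham replicate 1 left out, 4, 1 and 1 of the 8 were higher, beside 10.5%, 3.37% and 1.02% of all probes. The remaining Sham rat was then assumed to vary as the other groups did.

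RT1-Da, among the probes that stand for a gene, differed most from Sham in each of these comparisons, by 4.11, 2.96 and 2.73 on the log2 scale for TBI+Imipramine, TBI+Prozac and TBI+Zoloft (limma adjusted p = 0.000531, 0.00610 and 0.0159). Cd74 differed by 3.19, 2.13 and 2.15 (limma adjusted p = 0.00106, 0.0146 and 0.0245). Psmb9 differed by 2.18, 1.89 and 1.75 (limma adjusted p = 0.000224, 0.00128 and 0.00249). The order of the mean levels of Cd74 was Sham, TBI, TBI+Prozac, TBI+Zoloft and TBI+Imipramine, and the rats of TBI, TBI+Prozac and TBI+Zoloft overlapped. All TBI+Imipramine rats were above all TBI+Zoloft rats in Cd74, and the F test over the 3 drugs did not pass (limma adjusted p = 0.229).

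RT1-Db1 was above background in neither Sham rat on its second probe, and was at least 5.17-fold higher in TBI+Imipramine (limma adjusted p = 0.0110) and at least 4.15-fold higher in TBI+Prozac (limma adjusted p = 0.0271). The bound was 3.15-fold in TBI+Zoloft, where the test did not pass (limma adjusted p = 0.0799). On its first probe the differences were 2.32, 1.49 and 1.47, with limma adjusted p = 0.00368, 0.0436 and 0.0761. The call for TBI+Prozac was kept in 12 of 26 alternatives.

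Tap1 passed in TBI+Imipramine (log2 difference 1.38, limma adjusted p = 0.0264) and TBI+Prozac (1.57, limma adjusted p = 0.0223), and was at 1.39 with limma adjusted p = 0.0627 in TBI+Zoloft. The call for TBI+Imipramine was kept in 13 of 25 alternatives and that for TBI+Prozac in 18 of 25. Psmb8 passed in TBI+Imipramine only (2.42, limma adjusted p = 0.00422), and was at 1.53 and 1.25 in the others (limma adjusted p = 0.0516 and 0.149). B2m passed in TBI+Imipramine (0.76, limma adjusted p = 0.00862), as did the first probe of RT1-Bb (1.90, limma adjusted p = 0.0195). An effect past the threshold in 1 drug group and not in another is not shown to differ between them, and the F test over the drugs found no gene of the 9 past the threshold.

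Across all injured rats, 5 of the 8 genes had each of the 12 rats above both Sham rats: Cd74, RT1-Da, RT1-Db1, Tap1 and Psmb9. The same held for 12.1% of all probes. Psmb8 missed through TBI+Zoloft replicate 3, at -2.77, which lay between the Sham rats.

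**Figure D2:**
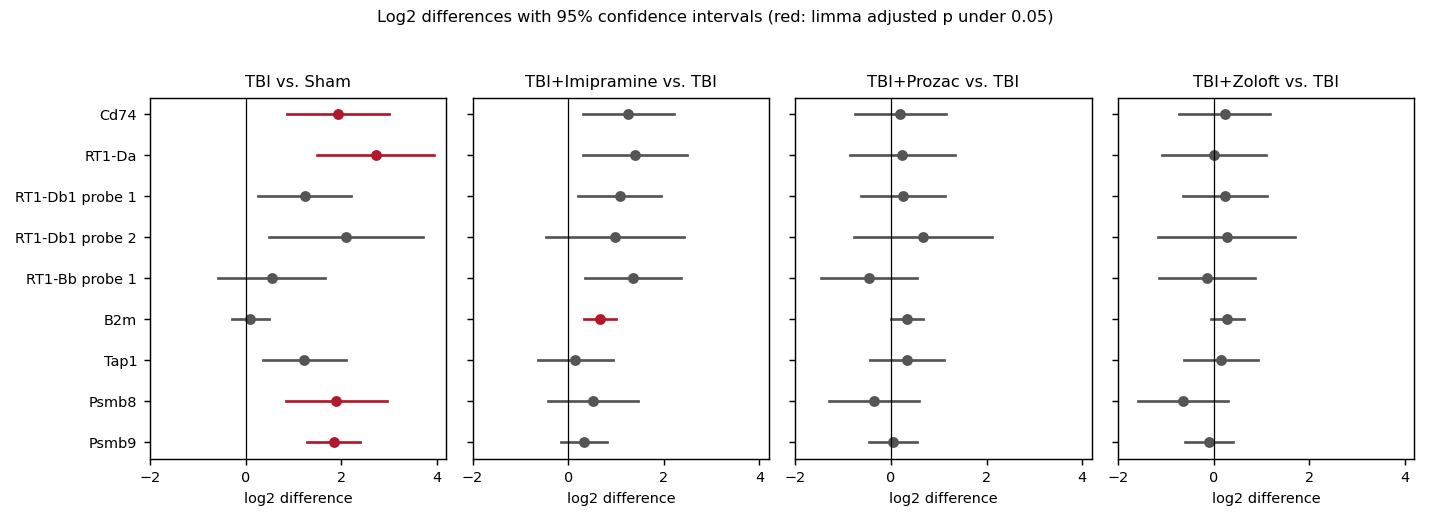
Log2 difference (horizontal axis) of each tested probe, except the second of RT1-Bb, with its 95% confidence interval, for TBI against Sham and for each drug group against TBI. Red marks an adjusted p under 0.05: Cd74, RT1-Da, Psmb8 and Psmb9 after TBI, and B2m in TBI+Imipramine, at 0.66.

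Next, each drug group was compared with TBI, to see whether a drug given after injury changed these genes. B2m was the only gene of the 9 that passed, and only in TBI+Imipramine. It was at 2.17, 2.52 and 1.96 there against 1.38, 1.59 and 1.69 in TBI, with no overlap. The log2 difference was 0.66 (95% CI 0.32 to 1, limma adjusted p = 0.0436), a 1.58-fold higher level, where 2.82% of all probes were higher. The median of all probes was itself higher by 0.20 in this comparison, and B2m was 0.46 above that median. The call was kept in 6 of 26 alternatives. Quantile normalization gave a log2 difference of 0.48 (limma adjusted p = 0.0956), and slide as a block gave 0.55 (limma adjusted p = 0.834).

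The class II genes had larger differences in TBI+Imipramine, with wider intervals. Cd74 was at 0.93, 1.26 and -0.25, and RT1-Da at -0.29, 0.05 and -1.68. In both, replicates 1 and 2 were above all TBI rats and replicate 3 was among them. The log2 differences from TBI were 1.26 for Cd74 (95% CI 0.31 to 2.22, limma adjusted p = 0.147) and 1.39 for RT1-Da (95% CI 0.30 to 2.48, limma adjusted p = 0.158).

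RT1-Db1 behaved alike on its first probe, at -2.40, -1.95 and -3.40 (log2 difference 1.08, 95% CI 0.21 to 1.95, limma adjusted p = 0.168). So did the first probe of RT1-Bb, at -3.17, -3.35 and -4.30 (1.35, 95% CI 0.35 to 2.36, limma adjusted p = 0.139). The second probe of RT1-Db1 differed by 0.98 (95% CI -0.46 to 2.42, limma unadjusted p = 0.163, adjusted p = 0.423). At an unadjusted p under 0.05, 5 of the 8 genes passed in TBI+Imipramine, the 4 class II genes and B2m, where 19.4% of all probes were higher at that threshold. After adjustment over all probes the 4 did not pass.

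Psmb8 was at -0.44, -0.56 and -0.49 in TBI+Imipramine, above all TBI rats, and its log2 difference of 0.52 did not pass (95% CI -0.42 to 1.46, limma adjusted p = 0.511). For Psmb9 and Tap1 the differences were 0.33 (95% CI -0.16 to 0.82) and 0.15 (95% CI -0.63 to 0.93). The difference of Tap1 was below 0 under 3 other scalings, among them quantile normalization at -0.15.

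In TBI+Prozac no gene of the 9 passed against TBI in limma, and 1 of 8, B2m, had an unadjusted p under 0.05. Over all probes, 0.00577% were higher, and 9.86% at an unadjusted p under 0.05. In TBI+Zoloft no gene passed and 0 of 8 had an unadjusted p under 0.05, beside 1.16% of all probes higher after adjustment and 8.91% before it. The methods' t-test counted 0 of the 8 in either drug, before and after adjustment. Before adjustment, with its fold limit, 6.22% of all probes were higher in TBI+Prozac and 4.67% in TBI+Zoloft. After adjustment these shares were 0.00577% and 0%.

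The intervals measure the spread between arrays in the fit without slide, and do not bound a difference that slide could hide. With slide as a block, the standard error for Cd74 in TBI+Zoloft against TBI was 0.81, against 0.44. For Cd74 the log2 difference from TBI was 0.20 in TBI+Prozac (95% CI -0.75 to 1.16) and 0.23 in TBI+Zoloft (95% CI -0.73 to 1.18). For RT1-Da it was 0.24 (95% CI -0.85 to 1.33) and 0.01 (95% CI -1.08 to 1.1). For Psmb9 it was 0.05 (95% CI -0.45 to 0.54) and -0.09 (95% CI -0.59 to 0.40).

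The upper bounds for Psmb9 were 0.54 and 0.40, and the lower bounds -0.45 and -0.59. Its log2 difference between TBI and Sham was 1.85. B2m was at 1.82, 1.79 and 2.09 in TBI+Prozac and at 1.87, 1.72 and 1.96 in TBI+Zoloft, above all TBI rats in both, with log2 differences of 0.34 (95% CI 0.00 to 0.68, limma adjusted p = 0.491) and 0.29 (95% CI -0.05 to 0.63, limma adjusted p = 0.411). Cd74 in TBI+Zoloft was the tightest of its groups, at -0.39, -0.34 and -0.43. In TBI+Prozac it was at -0.78, -0.91 and 0.45, so that replicate 3 alone lay above the TBI rats.

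On the slide that held both TBI and 1 drug array, TBI+Prozac replicate 1 differed from the TBI mean by -0.16 for Cd74, -0.33 for RT1-Da, 0.27 for B2m and 0.07 for Psmb9. With slide as a block the differences in TBI+Prozac rested wholly on that array. They were again -0.16 for Cd74 and -0.33 for RT1-Da, and -0.15 for RT1-Db1. For Cd74, RT1-Da and RT1-Db1 they were 0.71, 0.53 and 0.48 in TBI+Imipramine and -0.33, -0.85 and -0.37 in TBI+Zoloft. These too were linked to TBI through that 1 array alone. The slide of the other drug arrays held no TBI array.

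Differences among the drugs themselves were tested in 1 F test per probe (limma), which no gene of the 9 passed and 3.18% of all probes did. The lowest adjusted p was 0.0730, for the first probe of RT1-Bb. At an unadjusted p under 0.05, 3 of the 8 genes passed, RT1-Da, RT1-Bb and Psmb8 (limma adjusted p = 0.194, 0.0730 and 0.215), as did 22.5% of all probes.

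Psmb8 was at -1.06, -1.47 and -1.62 in TBI+Prozac and at -1.03, -1.19 and -2.77 in TBI+Zoloft, so every rat of both groups was below every TBI+Imipramine rat. Against TBI the log2 differences of Psmb8 were -0.36 (95% CI -1.30 to 0.58) and -0.64 (95% CI -1.58 to 0.30). The latter rested on TBI+Zoloft replicate 3, which had the lowest Psmb8 of all injured rats, and was -0.09 without it.

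Class II levels differed between rats of a group, and the probes of 1 gene did not always follow each other. The second probe of RT1-Bb was above background on 5 arrays, all 3 of TBI+Prozac at -5.52, -5.37 and -2.84, TBI+Imipramine replicate 2 at -2.99 and TBI+Zoloft replicate 3 at -3.68. The other rats of the last 2 groups were at -8.51 to -8.06 and not above background. The probe entered the fit only because all TBI+Prozac arrays were above background, so its tests are not used. Over the 14 rats this probe had r = -0.09 with the first probe of the same gene, as a description.

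**Figure D3:**
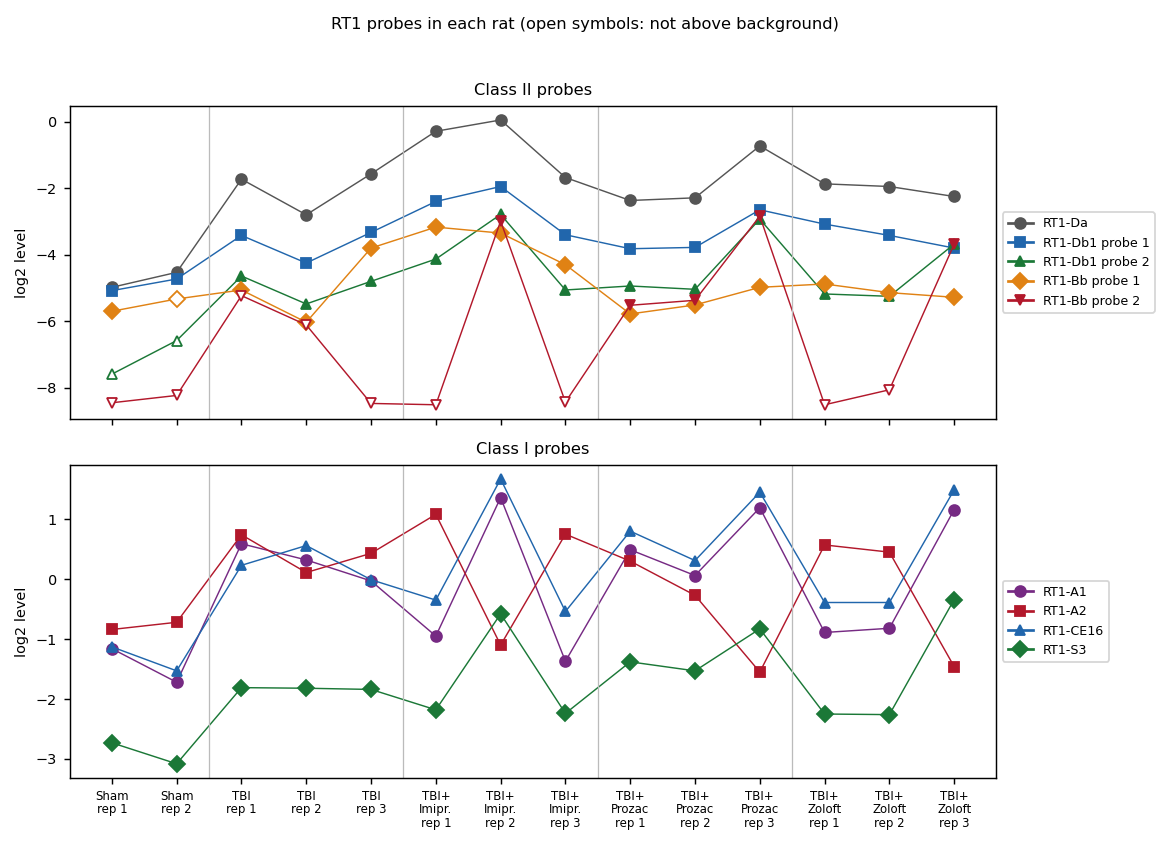
Log2 level (vertical axes) of class II probes and of selected class I probes in each rat, with groups divided by vertical lines and open symbols for values not above background. Lines join the values of 1 probe. The second probe of RT1-Bb peaks in TBI+Imipramine replicate 2, TBI+Prozac replicate 3 and TBI+Zoloft replicate 3, where RT1-A1 and RT1-CE16 peak and RT1-A2 is lowest.

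The same 3 rats, 1 of each drug group, stood apart on other RT1 probes, which were picked after their values were seen. RT1-A2, a class I heavy chain, was at -1.10 in TBI+Imipramine replicate 2, -1.55 in TBI+Prozac replicate 3 and -1.46 in TBI+Zoloft replicate 3, and at -0.84 to 1.08 in the 11 others. The RT1-A1 probe that followed RT1-Bb most closely was at 1.36, 1.19 and 1.16 in them and at -1.72 to 0.59 in the others. RT1-CE16 was at 1.67, 1.45 and 1.49 against -1.53 to 0.80. The second probe of RT1-Db1 had its 3 highest values, -2.79, -2.93 and -3.68, in these rats too.

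RT1 genes are known to vary between rats, Sprague-Dawley is an outbred stock, and RT1 copies resemble each other closely. Whether a probe matches the RT1 alleles of each rat, or is bound by related copies, was not tested, and RT1 values are uncertain to that extent. With these 3 rats left out, 6 of the 8 genes were higher in TBI than in Sham, beside 7.27% of all probes. All 3 were drug-treated, so the TBI and Sham levels were unchanged, and only the estimated spread differed. For Tap1 the log2 difference stayed at 1.23, while its standard error went from 0.4 to 0.19. The rise from 4 genes to 6 therefore shows no larger difference from Sham. Against Sham, 7, 5 and 5 were higher in TBI+Imipramine, TBI+Prozac and TBI+Zoloft, beside 11.3%, 5.97% and 2.64%. B2m no longer passed in TBI+Imipramine against TBI (log2 difference 0.51, limma adjusted p = 0.197).

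Genes whose levels followed the members most closely were sought among 9915 named probes above background on all arrays. Over the 14 rats, which share the step between Sham and injury, Cd74 had r = 0.99 with RT1-Da and 0.98 with the first probe of RT1-Db1. Outside the 9 genes the 5 nearest to Cd74 were C5ar1, the receptor of complement C5a (r = 0.98), the lysosomal protease Ctsc (0.97), the leukocyte phosphatase Ptprc (0.97), Glipr1 (0.96) and the lysosomal thiol reductase Ifi30 (0.95). Over the 12 injured rats alone these were 0.94, 0.96, 0.92, 0.92 and 0.88.

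For Psmb9 the nearest were the interferon-inducible GTPase Gbp2 (r = 0.98), Tagln2 (0.98), Anxa2 (0.97), Glipr1 (0.97) and the interferon-inducible Ifitm1 (0.97), and over the injured rats these were 0.79, 0.77, 0.80, 0.87 and 0.80. For B2m they were Cbfb (0.95), Ppil1 (0.95), Ube2d2b (0.94), Tram1 (0.93) and Hmgb1 (0.92), and over the injured rats 0.95, 0.95, 0.92, 0.92 and 0.91. None of the 5 genes nearest B2m passed in TBI vs. Sham, with log2 differences of 0.09 to 0.22. These are descriptions over rats that share slides and groups. Glipr1 was near both Cd74 and Psmb9, and B2m shared no near gene with either.

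The members of a class also differed in how they went together within the injured rats. Over these 12, Cd74 had r = 0.98 with RT1-Da and 0.84 with Psmb9, and r = 0.20 with Tap1 and 0.40 with Psmb8. Tap1 and Psmb8, neighbours on the chromosome, had r = -0.56, which rested on 1 rat and was -0.02 without it. That rat, TBI+Zoloft replicate 3, had the highest Tap1 of all rats, -3.15, with the lowest Psmb8 of the injured.

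Other genes of the pathway were counted in the same fits. Among class II partners, 3 of 8 genes tested were higher after TBI: RT1-DMb, a chain of the peptide exchanger DM (log2 difference 1.23, limma adjusted p = 0.0131), the lysosomal protease Lgmn (1.04, limma adjusted p = 0.00225) and Ifi30 (1.11, limma adjusted p = 0.00538). None was lower, and the median of the 8 was 0.58 against 0.00 for all probes, of which 8.3% were higher. The same 8.3% stands beside each count of TBI vs. Sham that follows. Ciita and Rfx5, whose products act at class II promoters, and RT1-DOa and RT1-DOb were above background on no array.

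Among class I heavy chains, 3 of 18 genes tested were higher after TBI, beside 8.3% of all probes, and none was lower, with a median of 0.68. These were RT1-A1, RT1-CE5 and RT1-S2, with log2 differences of 0.97, 0.95 and 1.08 (limma adjusted p = 0.0133, 0.00309 and 0.00702). B2m, which pairs with them, was at 0.10 in the same comparison. Of 6 genes of class I loading, 2 were higher, the tapasin gene Tapbp (0.87, limma adjusted p = 0.0312) and the chaperone Canx, for which no size is given, since 1 of 3 TBI arrays and no Sham array were above background.

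Of 19 other proteasome genes 3 were higher after TBI, beside 8.3% of all probes, and none was lower: the proteasome activator subunits Psme1 and Psme2, by 0.90 and 0.87 (limma adjusted p = 0.00354 and 0.00259), and Psmb6, a constitutive catalytic subunit, by 0.58 (limma adjusted p = 0.0185). The median of the 19 was 0.25, below the differences measured for Psmb8 and Psmb9. Psmb10, also a catalytic subunit of the immunoproteasome, was among the 19 and did not pass after TBI. In interferon gamma signalling 2 of 10 passed, Gbp2 (2.66, limma adjusted p = 0.00081) and the kinase Jak2 (0.74, limma adjusted p = 0.0375), and Ifng itself was above background on no array. Of 4 costimulation genes 3 were higher: Cd40 by 1.47, Icam1 by 1.14 and Cd86, the last above background on 1 TBI array and no Sham array (at least 1.33-fold, limma adjusted p = 0.0267).

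Against TBI, no gene of these 6 lists passed in TBI+Imipramine, TBI+Prozac or TBI+Zoloft. Their median log2 differences in TBI+Imipramine were 0.18 to 0.46, beside 0.20 for all probes. In TBI+Prozac they were 0.00 to 0.23 beside 0.15, and in TBI+Zoloft -0.31 to 0.21 beside 0.01.

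Markers of the cell types that could carry these genes were measured on the same arrays. Of 6 monocyte and macrophage genes tested, 5 were higher after TBI: Cd14 by 3.49, Cd68 by 1.67, Lyz2 by 1.49, Ptprc by 1.55 and Msr1, which was above background in no Sham rat and at least 4.15-fold higher (limma adjusted p = 3.4e-05). Msr1, a scavenger receptor, was also the only marker that passed for a drug against TBI, at -2.26 in TBI+Imipramine against -4.31 (log2 difference 2.05, limma adjusted p = 0.00695). Of 6 microglia genes only Itgam passed after TBI (1.05, limma adjusted p = 0.0254). Of 4 endothelial genes only Cldn5 passed (0.63, limma adjusted p = 0.0118).

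Of lymphocyte and dendritic cell markers, some were measured and many were not. Cd79b of B cells, Cd4 and Cd2 of T cells, and Zbtb46, Ccr7, Xcr1 and Clec9a of dendritic cells were above background on no array. Pax5 of B cells was above background on all 14 arrays (log2 difference 0.10 after TBI), Cd3d of T cells on 13 (-0.50) and Cd3e on 11 (-0.31), and none of these passed (limma adjusted p = 0.675, 0.153 and 0.720). Batf3 and Cd8a did pass, both above background in no Sham rat, at least 3.51-fold and 1.74-fold higher after TBI (limma adjusted p = 0.000352 and 0.0205). Markers of meninges, choroid plexus, blood and hippocampal neurons gave no call in TBI vs. Sham.

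**Figure D4:**
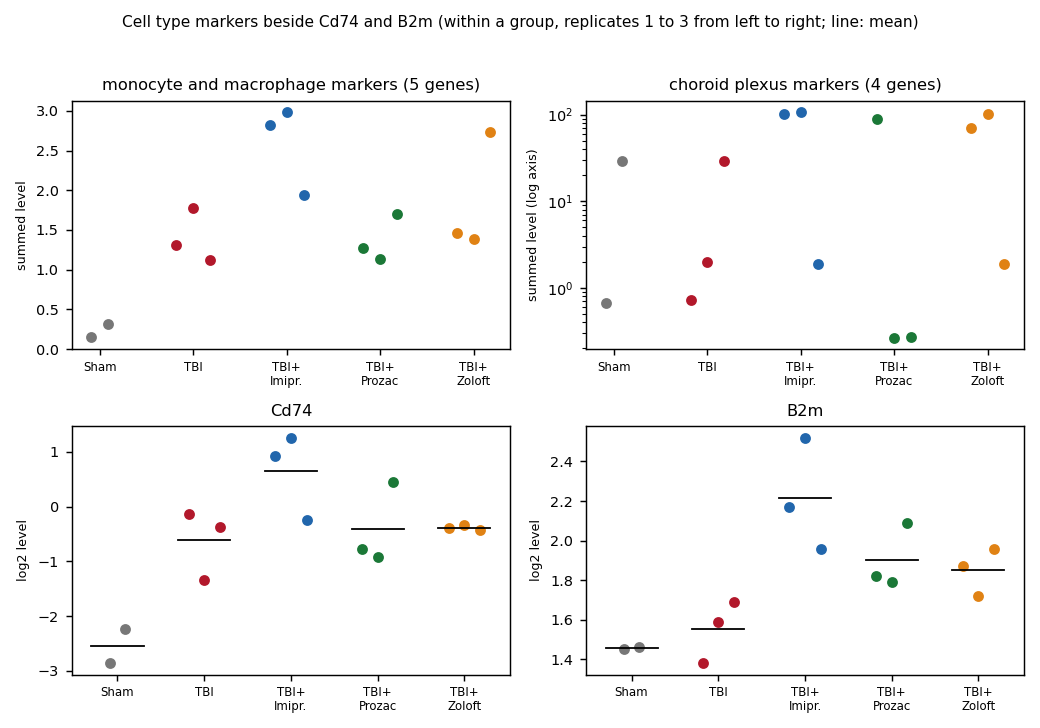
Summed level of the markers of monocytes and macrophages (linear axis) and of choroid plexus (log axis) above, and log2 levels of Cd74 and B2m below, for each rat by group. Macrophage markers, their sum led by Cd14 in injured groups, reach 2.82 and 2.98 in the 2 TBI+Imipramine rats with the highest Cd74. Choroid plexus markers range from 0.265 to 106.3 with high and low rats in every group.

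Lyz2 had no value on 1 array, TBI+Zoloft replicate 1, where both its spots were outliers, and its fit dropped that array. The summed level of the other 5 tested monocyte and macrophage markers, relative to the 75th percentile, was 0.150 and 0.312 in Sham and 1.31, 1.78 and 1.12 in TBI. It was 2.82, 2.98 and 1.94 in TBI+Imipramine, 1.27, 1.13 and 1.70 in TBI+Prozac and 1.47, 1.39 and 2.73 in TBI+Zoloft. All injured rats were above both Sham rats. The sum added linear levels and was led by Cd14 in the injured groups. In TBI the mean log2 level was -0.14 for Cd14 and -2.83 for Cd68. Replicates 1 and 2 of TBI+Imipramine had the highest sums and the highest Cd74, while TBI+Zoloft replicate 3, with the next sum, had Cd74 at -0.43, the lowest of its group. The part of these cells in the differences was not tested.

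Choroid plexus, which lies against the hippocampus, was unevenly present. The summed level of its 4 tested markers, led by Ttr, was 0.665 and 29.4 in Sham and 0.725, 1.99 and 28.8 in TBI. It was 101.6, 106.3 and 1.89 in TBI+Imipramine, 88.3, 0.265 and 0.268 in TBI+Prozac and 69.8, 102.1 and 1.90 in TBI+Zoloft. The 7 arrays at 28.8 or above were left out in 1 alternative, after these values were seen. This left 1 Sham and 2 TBI rats, so the lone Sham rat was assumed to vary as the other groups did. On that footing 5 genes of the 9 were higher after TBI, the 4 and Tap1, beside 4.87% of all probes.

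The difference of Cd74 between TBI and Sham was 2.12 without those arrays, against 1.93 with them. In TBI+Prozac, the rat with the highest Cd74 had a choroid plexus level of 0.268. In TBI+Imipramine the 2 rats with high Cd74 also had high choroid plexus levels, and replicate 3, with Cd74 at -0.25 and B2m at 1.96, had 1.89. Without the 7 arrays B2m in that rat differed from the 2 remaining TBI rats by 0.47. Cd74, RT1-Da and RT1-Db1 then differed by 0.49, 0.58 and 0.43, against 1.26, 1.39 and 1.08 with all arrays. RT1-Bb differed by 1.24, against 1.35.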

How the data were processed

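The deposited scanner files give each spot's linear intensity, for which the authors used Agilent Feature Extraction to subtract background and spatial trend and to write 0 or 1 flags (values of another kind) for spots above background, outlying or saturated. An intensity table that the authors processed and deposited for the series served as an alternative. The methods scale each array to its 75th percentile over detected probes.

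Here, spots with an outlier flag were left out, spots of a probe averaged, and arrays scaled to their own 75th percentile over detected probes (over 0.5 of spots above background) before log2. Probes detected in all arrays of 1 group or more were kept (17322 of 30367). No value of the 11 probes was saturated. The number of arrays limits precision. Limma 3.58.1 (lmFit and eBayes, R 4.3.3, two-sided) fitted 5 group means on 14 arrays, with Benjamini-Hochberg adjustment over all kept probes and a threshold of 0.05. Confidence intervals are limma's. The fit was tested on simulated data. The labels give a replicate number per rat, and p-values measure the spread between these arrays.

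For a probe above background on no array of a group, the bound divides the other group's mean by the mean of, per array, the higher of the lowest detected signal and the probe's own. Of several probes of a gene, the one of highest mean stands for the gene in counts, and each is given. Accessions were matched to symbols of the RefSeq table of GRCr8 (18643 of 30367 probes), which gave names and gene order. The array design predates that build, so no probe coordinates are given. Genes outside the 9 were named where they passed in TBI vs. Sham or a drug vs. TBI, at most 8 per list, or were among the 5 with the highest Pearson r. Further marker and pathway genes were named for their level or detection, and some RT1 probes after their values were seen. The genes, lists and motifs were chosen with earlier results of these data known. Alternatives were normexp with an offset of 50 on the median spot signals (the files hold no mean signals), quantile normalization, other percentiles, filters and spots, slide or replicate blocks, each array left out, 2 sets of arrays left out (chosen after seeing the data), and the methods' t-test. The methods' t-test uses an unadjusted threshold of 0.05 and a 1.2-fold limit. MicroRNA arrays were not used here.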

Additional observations from a re-analysis of the deposited data

Results flagged for a closer look

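Psmb8 and the first probe of RT1-Bb lay on opposite sides of the TBI mean in different drug groups. For Psmb8, every TBI+Imipramine rat was above the TBI mean and every TBI+Prozac and TBI+Zoloft rat below it, with log2 differences between the group means of 0.89 (TBI+Imipramine over TBI+Prozac) and 1.17 (TBI+Imipramine over TBI+Zoloft). Some were close to that mean of -1.02, with TBI+Zoloft replicate 1 at -1.03 and TBI+Prozac replicate 1 at -1.06. TBI+Zoloft replicate 3 was at -2.77. Without that rat the TBI+Zoloft difference from TBI was -0.09, against -0.64 with it. For the first probe of RT1-Bb, every TBI+Imipramine rat was above and every TBI+Prozac rat below, a log2 difference of 1.82. The TBI mean was -4.96 with TBI+Prozac replicate 3 at -4.98, and every TBI+Prozac rat lay within the TBI range of -6.03 to -3.80. The second probe of RT1-Bb did not share this: it was above background on no TBI array and on all TBI+Prozac arrays. Its levels in TBI were -5.23, -6.11 and -8.47. The first of these was above TBI+Prozac replicates 1 and 2, at -5.52 and -5.37, so detection and level did not separate alike. The pairs of drugs were not tested on their own; limma's F test over the 3 drugs gave adjusted p = 0.215 for Psmb8 and 0.0730 for RT1-Bb. Groups of 2 or 3 rats are too small for a test of outlying rats.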

How the results depend on the processing

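With 2 Sham arrays and 3 per injured group, the number of arrays limits every comparison, and dim probes such as RT1-Bb and Tap1 lie near background. Over 26 alternatives, Psmb9 after TBI passed in 25, RT1-Da in 24, Psmb8 in 23 and Cd74 in 22, while B2m in TBI+Imipramine against TBI passed in 6 (adjusted p 0.0187 to 0.873). The methods' t-test after adjustment over all probes counted 0 genes in each comparison. By that rule 0% of all probes were higher in TBI against Sham. Against Sham the shares were 5.14%, 0% and 0% for TBI+Imipramine, TBI+Prozac and TBI+Zoloft, and against TBI 0.15%, 0.00577% and 0%. Unadjusted, at its own threshold and fold limit, it counted 5 of 8 after TBI (9.57% of all probes were higher by the same rule), 8, 5 and 5 in TBI+Imipramine, TBI+Prozac and TBI+Zoloft against Sham (24.8%, 17.8% and 7.37%), and 1, 0 and 0 against TBI (13.9%, 6.22% and 4.67%). The cause of the changes listed here was not tested.

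Leaving out 1 array at a time gave 1 to 5 genes for TBI vs. Sham, beside 3.22% to 11.3% of all probes higher. Against Sham it gave 4 to 8 for TBI+Imipramine (10.5% to 23%), 1 to 6 for TBI+Prozac (3.37% to 14%) and 1 to 4 for TBI+Zoloft (1.02% to 5.01%). Against TBI it gave 0 to 1 for TBI+Imipramine (0.0693% to 3.37%), and 0 for TBI+Prozac (0% to 0.693%) and TBI+Zoloft (0% to 1.94%). The F test gave 0 to 1, beside 11 to 804 of all 17322 probes. The lowest counts against Sham were reached without Sham replicate 1, which left 1 Sham rat, assumed to vary as the other groups did. Differences near 0 changed sign within these ranges. For RT1-Bb the range was -0.03 to 1.08 in TBI vs. Sham and -0.13 to 0.27 in TBI+Prozac vs. Sham. For Tap1 in TBI+Imipramine against TBI it was -0.10 to 0.33. In TBI+Prozac against TBI the ranges were -0.23 to 0.45 (Cd74), -0.29 to 0.52 (RT1-Da), -0.99 to 0.12 (RT1-Bb), -0.13 to 0.45 (RT1-Db1) and -0.06 to 0.16 (Psmb9). In TBI+Zoloft against TBI they were -0.13 to 0.47 (Cd74), -0.37 to 0.24 (RT1-Da), -0.67 to 0.45 (RT1-Bb), -0.06 to 0.42 (RT1-Db1), -0.35 to 0.44 (Tap1) and -0.20 to 0.00 (Psmb9).

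Scaling moved the median of all probes in TBI+Imipramine against TBI from 0.20 to -0.01 under quantile normalization. TBI+Imipramine against TBI then had 0 genes, as it did under the 75th percentile over all probes, the series-table values and no filter on dim probes. In these settings in turn, 0.254%, 0.3%, 0.289% and 0.711% of all probes were higher. Under quantile normalization, the percentile over all probes and the series table in turn, Tap1 in TBI+Imipramine against TBI was -0.15, -0.07 and -0.07, Psmb9 in TBI+Prozac against TBI was -0.09, -0.12 and -0.13, RT1-Da in TBI+Zoloft against TBI was -0.01 in each, and RT1-Bb in TBI+Prozac against Sham was -0.12, -0.10 and -0.11. The series table gave 3 genes in TBI+Prozac against Sham, beside 8.74% of all probes higher. With normexp, RT1-Bb in TBI+Prozac against Sham was -0.18, and in TBI+Zoloft against TBI RT1-Da was -0.09, RT1-Bb 0.03 and Psmb9 0.05.

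Samples of different groups that share a replicate number did not deviate together: of 26 such pairs, 2 had a correlation over 0.1 (range -0.23 to 0.23), so the numbers were not taken to pair rats. With the replicate number as a block, TBI vs. Sham kept 4 genes, beside 6.11% of all probes higher. TBI+Imipramine against TBI had 0, beside 2.19%, and RT1-Bb in TBI+Prozac against Sham was -0.00. With slide as a fixed block among the injured rats, TBI+Imipramine against TBI had 0 genes, beside 0.0115% of all probes higher. Cd74, RT1-Da and RT1-Db1 against TBI were 0.71, 0.53 and 0.48 in TBI+Imipramine. In TBI+Prozac they were -0.16, -0.33 and -0.15, and in TBI+Zoloft -0.33, -0.85 and -0.37. Every drug group was linked to TBI by TBI+Prozac replicate 1 alone. Sham has a slide of its own, so comparisons with Sham used slide as a random block (correlation -0.0579). This does not adjust them for slide. TBI+Zoloft against Sham then had 5 genes, beside 5.57% of all probes higher.

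Of the alternatives chosen after seeing the data, 1 left out the 7 arrays high in choroid plexus genes. This left 1 rat each of Sham, TBI+Imipramine and TBI+Zoloft and 2 each of TBI and TBI+Prozac. Lone rats were assumed to vary as the other groups did. Psmb8 was then lower in TBI+Zoloft than in TBI, at -1.78, where replicate 3 was the only TBI+Zoloft rat. Against TBI, Tap1 was then -0.24 in TBI+Imipramine, RT1-Bb 0.30 in TBI+Prozac and 0.27 in TBI+Zoloft, and Psmb9 0.14 in TBI+Zoloft. Leaving out the 3 arrays apart in RT1 probes gave 0 genes in TBI+Imipramine against TBI, beside 0.139% of all probes higher. It gave 5 in TBI+Zoloft against Sham, beside 2.64%. Against TBI, Tap1 was then -0.10 in TBI+Imipramine and -0.35 in TBI+Zoloft, and in TBI+Prozac Cd74 was -0.23, RT1-Da -0.29, RT1-Db1 -0.13 and Psmb9 -0.06. RT1-Bb in TBI+Prozac against Sham was -0.13.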
